A study of Mus musculus with 12 samples.

Results

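The 10 chemokine genes Ccl2, Ccl3, Ccl4, Ccl5, Ccl7, Ccl12, Cxcl10, Cxcl16, Cx3cl1 and Cxcl12 were taken by gene name from the 32867 genes of the table, and all 10 were found. Retinal RNA had been sequenced from 4 groups of mice with 3 samples each. Pde6b rd1 mice carry a mutation of the rod phosphodiesterase subunit and were sampled at postnatal day 13. Pde6b rd10 mice carry another mutation of the same gene and were sampled at day 23. Prph rd2 mice carry a mutation of the photoreceptor protein peripherin and were sampled at day 29. The C3H wild-type group held 1 sample of each of days 13, 23 and 29. By the methods of the study, C3H is the background of Pde6b rd1, Prph rd2 and the wild type, and C57Bl6/J that of Pde6b rd10, while the labels name C57BL6/J for Prph rd2. In the comparison of Pde6b rd10 with C3H, mutation and strain therefore cannot be told apart. The retina was taken whole and at the labelled peak of photoreceptor cell death, and it is not stated whether a sample was 1 animal or a pool.

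Chemokines are small secreted proteins that guide the migration of leukocytes by binding G protein-coupled receptors. Inflammatory chemokines, among them most CC ligands and Cxcl10, are scarcely transcribed in resting tissue and are induced by cytokines and by nucleic acid or pathogen sensors. Others, such as Cxcl12 and Cx3cl1, are made constitutively. Cx3cl1 is a membrane-anchored ligand made by neurons, and in the healthy retina and brain its receptor Cx3cr1 is a mark of microglia, the resident macrophages.

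Between 17049495 and 24755890 reads were counted on genes per sample, and the group medians were 20004233 for Pde6b rd10, 23931042 for Prph rd2, 19265160 for Pde6b rd1 and 19850905 for the wild type. Levels are given as counts, as deposited, and as FPKM, which the authors scaled to gene length and to the reads counted. A detection floor of 3 counts over the 3 samples of a group corresponded to 0.0422 to 0.0498 CPM, and floors and counting intervals cover counting error only. Pde6b counts were 4937 to 6253 in Pde6b rd1 and 24335 to 29129 in C3H, and 16340 to 21014 in Pde6b rd10. Prph2 counts were 30656 to 34634 in Prph rd2 and 52768 to 65756 in C3H. Lower Prph2 counts were not particular to Prph rd2, with 29041 to 35541 in Pde6b rd1 and 38587 to 51724 in Pde6b rd10. The rod markers, which include Sag and Nrl, were abundant in every sample, so the tissue matched its label. Xist, the transcript of the inactive X chromosome of females, had 8 to 10 counts in the C3H samples. It had 64914 to 83716 in Pde6b rd1, 37187 to 47452 in Prph rd2 and 13428 to 18861 in Pde6b rd10. Sex composition thus differed between C3H and every model and may differ between the models. In every comparison with C3H, sex and mutation therefore cannot be told apart. The part of sex in the differences between models was not tested.

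Of the 10 genes, 7 lie on chromosome 11 (build GRCm38, GENCODE vM21). Ccl2 (chr11:82035571-82037453), Ccl7 (chr11:82045712-82047525) and Ccl12 (chr11:82101845-82103400), all on the plus strand, stood within 67830 bases of each other. Ccl5 (chr11:83525778-83530518, minus strand), Ccl3 (chr11:83647844-83649355, minus strand) and Ccl4 (chr11:83662584-83664683, plus strand) formed another run of 138906 bases. Cxcl16 lay apart at chr11:70453983-70459984 on the minus strand. The other three were Cxcl10 on chr5:92346638-92348889 (minus strand), Cxcl12 on chr6:117168535-117181367 (plus strand) and Cx3cl1 on chr8:94772009-94782427 (plus strand). All 10 are protein-coding genes.

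A RefSeq promoter (GRCm38.p6) was at hand for 5 of the 10 genes: Cxcl10, Cxcl12, Cx3cl1, Ccl12 and Ccl3. The 250 bases before the start of 3 of them are shown, 5′ to 3′ on the strand of the gene. Cxcl10 and Ccl12 were scarce in C3H and called higher in Pde6b rd10, and Cxcl12 was transcribed in every group. Capitals mark matches, on either strand, to the NF-kB consensus, to an interferon-response-like word (GAAA, any 2 bases, GAAA) and to the AP-1 word TGANTCA.
Cxcl10 (chr5:92348890-92349139, minus strand): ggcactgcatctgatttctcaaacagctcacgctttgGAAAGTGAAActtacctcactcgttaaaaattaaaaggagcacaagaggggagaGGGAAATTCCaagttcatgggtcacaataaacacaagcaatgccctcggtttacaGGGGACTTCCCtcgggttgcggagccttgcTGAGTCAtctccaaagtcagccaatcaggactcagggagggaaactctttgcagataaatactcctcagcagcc
Ccl12 (chr11:82101595-82101844, plus strand): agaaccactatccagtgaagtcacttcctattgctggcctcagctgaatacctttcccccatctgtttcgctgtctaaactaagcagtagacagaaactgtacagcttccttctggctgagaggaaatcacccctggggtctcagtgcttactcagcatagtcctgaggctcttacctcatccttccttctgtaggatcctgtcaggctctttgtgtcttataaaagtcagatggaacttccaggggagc
Cxcl12 (chr6:117168285-117168534, plus strand): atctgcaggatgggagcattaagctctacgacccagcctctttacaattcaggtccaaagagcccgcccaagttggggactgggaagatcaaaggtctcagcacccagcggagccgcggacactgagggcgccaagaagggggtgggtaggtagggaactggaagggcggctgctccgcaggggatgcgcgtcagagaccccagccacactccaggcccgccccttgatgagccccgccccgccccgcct
The Cxcl10 window held 3 NF-kB matches, which begin 159, 104 and 103 bases before the start and of which the last 2 overlap. It also held 1 match to the GAAA pair, which begins 213 bases before the start, and 1 TGANTCA match, which begins 74 bases before it. None of these words was found in the windows of Ccl12, Cxcl12, Ccl3 or Cx3cl1, the last of which runs from 94771930 to 94772179 before the RefSeq start and thus in part past the GENCODE start given above. Over 32851 promoters of the same length, 7.25% held the NF-kB consensus, 2.98% the GAAA pair and 6.75% TGANTCA.

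In Pde6b rd10 the retina contained transcripts of all 10 chemokine genes, with between 7 and 2503 counts per sample. In C3H, Pde6b rd1 and Prph rd2 only Cx3cl1, Cxcl16 and Cxcl12 were well above the floor, and each of the other seven genes had at most 5 counts in any sample. Of the 10 genes, 9 passed edgeR's filter on low counts in the comparison of Pde6b rd10 with C3H, and all 9 were called higher in Pde6b rd10 (1.5-fold or more, with the p before adjustment below 0.05). Of the 18704 genes tested in this comparison, 15.9% were called higher. The filter kept genes with enough counts in 3 samples, which the scarce genes reached only through Pde6b rd10, so those could hardly have been tested without a difference. Ccl4 did not pass the filter. Without it all 10 genes were called higher. In every one of the 9 tested genes each Pde6b rd10 sample lay above each C3H sample, as in 30.3% of all genes tested.

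**Figure D1:**
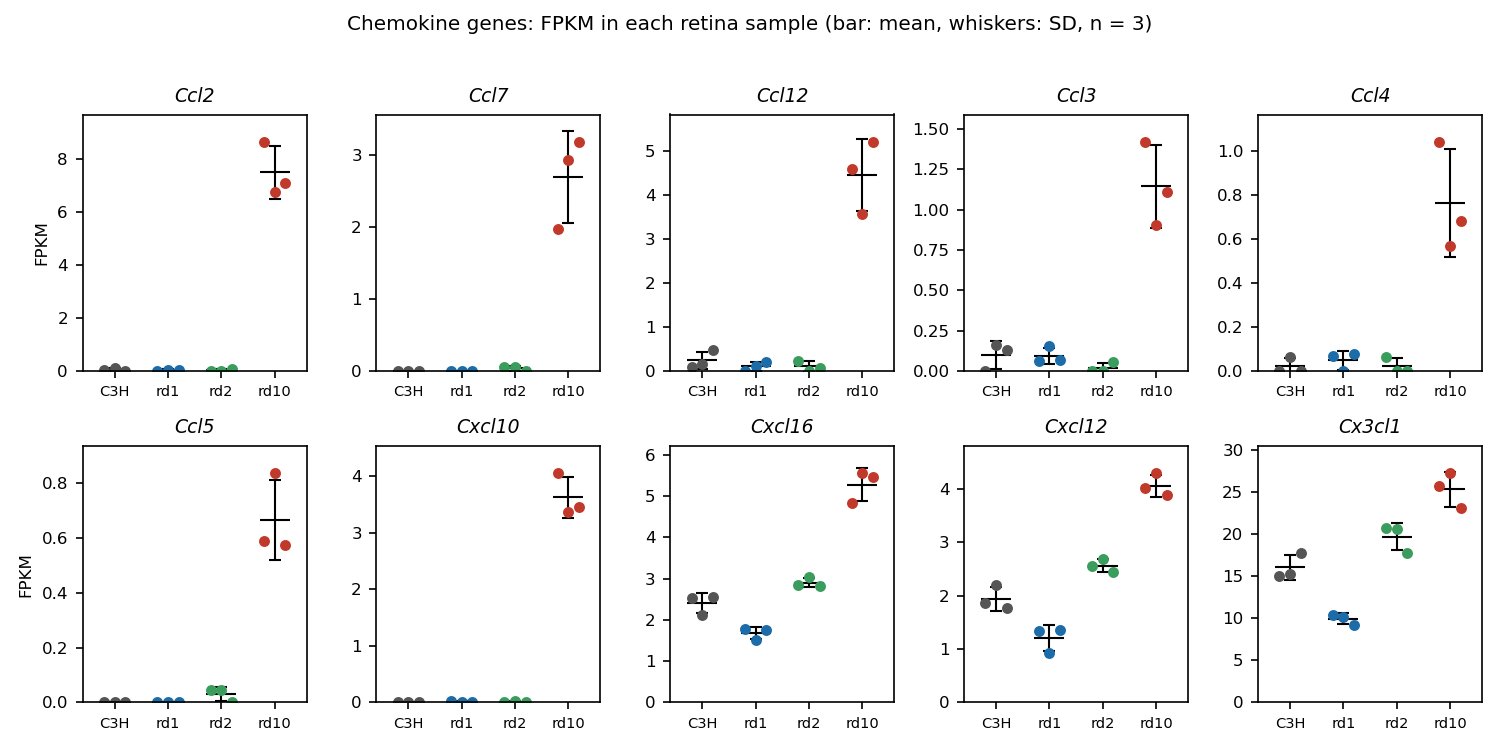
FPKM of the 10 chemokine genes (vertical axes, each from 0) in the 4 groups (horizontal axes). Points are the 3 samples of a group, bars the mean and whiskers the SD, and in every panel the 3 Pde6b rd10 (rd10) points lie highest, while 7 genes lie near 0 in C3H, Pde6b rd1 (rd1) and Prph rd2 (rd2).

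Ccl2, Ccl7 and Ccl12 encode monocyte chemoattractants, ligands of the receptor Ccr2. Ccl2 had 244, 144 and 162 counts in the Pde6b rd10 samples and 1, 3 and 0 in the C3H samples. The pooled Pde6b rd10 counts, normalized to library size, were 133-fold those of C3H (95% counting interval 51.6 to 490), with an adjusted p of 1.68e-13 by the quasi-likelihood test of edgeR, with p-values of all tested genes adjusted by the Benjamini-Hochberg method. At 7.51 ± 1.01 FPKM (SD, n = 3), Ccl2 was second among the 10 genes in Pde6b rd10. Ccl7 had 39, 44 and 51 counts in Pde6b rd10 and 0 in each C3H sample. It was at least 43.2-fold higher, measured against the floor of 3 counts over the group, with an edgeR adjusted p of 1.15e-08. Ccl12 had 61, 36 and 56 counts in Pde6b rd10 and 1, 2 and 5 in C3H. Its log2 fold change was 4.14 (SE 0.40), with an edgeR adjusted p of 1.87e-08. For all 3 genes the lowest Pde6b rd10 sample was far above the highest C3H sample. In Pde6b rd1, Ccl2 had 0, 1 and 1 counts, Ccl7 none and Ccl12 0, 1 and 2. In Prph rd2, Ccl2 had 0, 0 and 2 counts, Ccl7 1, 1 and 0, and Ccl12 3, 0 and 1. The Ccl12 ratios to C3H were 0.384 (95% counting interval 0.0656 to 1.6) in Pde6b rd1 and 0.433 (0.0955 to 1.62) in Prph rd2, and both intervals included equality.

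Ccl3, Ccl4 and Ccl5 encode attractants of monocytes and T cells, and Ccl3 and Ccl5 bind the receptor Ccr1. Ccl3 had 27, 13 and 17 counts in Pde6b rd10 and 0, 3 and 2 in C3H, a pooled ratio of 11.0 (95% counting interval 4.46 to 35.2) with an edgeR adjusted p of 2.24e-05. Ccl4 had 17, 7 and 9 counts in Pde6b rd10 and 0, 1 and 0 in C3H, a pooled ratio of 31.9 whose counting interval ran from 5.34 to 1300. Ccl5 had 14, 15 and 11 counts in Pde6b rd10 and none in C3H, and was at least 12.9-fold higher with an edgeR adjusted p of 7.93e-06. These were the least abundant of the 10 genes in Pde6b rd10, at 1.15 ± 0.261, 0.763 ± 0.247 and 0.666 ± 0.147 FPKM (SD, n = 3) for Ccl3, Ccl4 and Ccl5. In Pde6b rd1, Ccl3 had 1, 2 and 1 counts, Ccl4 1, 0 and 1, and Ccl5 none. In Prph rd2 each of the 3 genes had at most 1 count per sample. No fold change between these 2 models and C3H is given for Ccl2, Ccl3, Ccl4, Ccl5, Ccl7 and Cxcl10, because no sample of either side exceeded 3 counts.

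Cxcl10 encodes the interferon-inducible ligand of Cxcr3, a receptor of activated T cells. It had 226, 142 and 156 counts in Pde6b rd10 and none in any C3H sample. It was at least 169-fold higher, with an edgeR adjusted p of 3.43e-13. Pde6b rd1 had 1, 0 and 0 counts and Prph rd2 0, 1 and 0, so that 1 read in each of these groups stood against 524 in Pde6b rd10. Its receptor gene Cxcr3 had 5, 5 and 3 counts in Pde6b rd10 and none in the other 9 samples, too few to be tested.

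**Figure D2:**
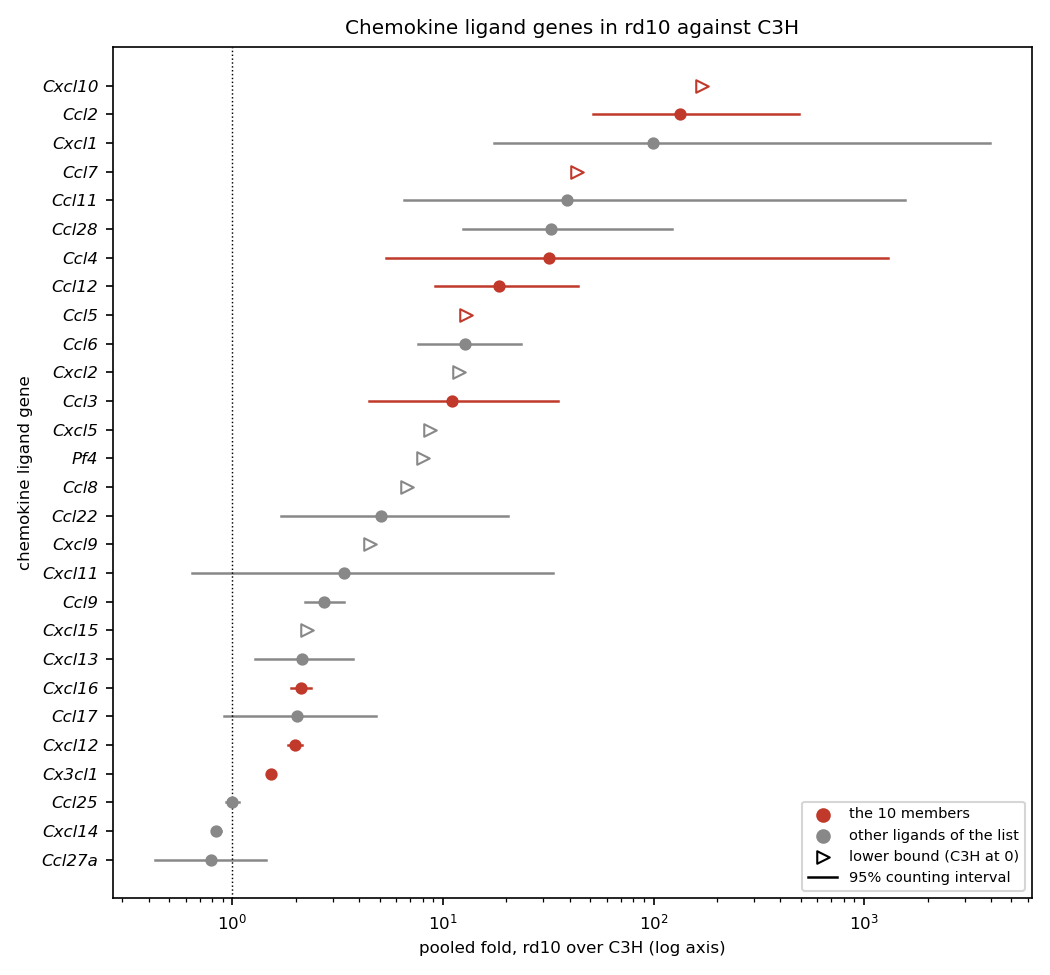
Normalized counts of Pde6b rd10 over those of C3H (horizontal log axis), pooled over 3 samples a group, for the 10 genes (red) and the other listed ligands with a fold change (grey). Lines are 95% counting intervals and open arrowheads are lower bounds against 3 pooled counts; the members run from 1.53-fold for Cx3cl1 to at least 169-fold for Cxcl10.

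Cx3cl1, the membrane-anchored neuronal ligand of Cx3cr1, was the most abundant of the 10 genes in every group. In FPKM it measured 15.0, 15.3 and 17.8 in C3H, 10.4, 10.2 and 9.18 in Pde6b rd1, 20.7, 20.6 and 17.8 in Prph rd2, and 25.7, 27.2 and 23.1 in Pde6b rd10. The Pde6b rd1 samples lay below and the Pde6b rd10 samples above all C3H samples, and the Prph rd2 samples overlapped with C3H. In Pde6b rd10 it rose by a log2 fold change of 0.61 (SE 0.07, edgeR adjusted p = 9.92e-08). This value lies just above the 1.5-fold threshold of 0.585, and the call was lost when Pde6b rd10 sample 2 (0.56), C3H sample 1 (0.56) or C3H sample 2 (0.57) was left out. In Pde6b rd1 Cx3cl1 fell by 0.76 on the log2 scale (SE 0.06, edgeR adjusted p = 5.54e-10). In Prph rd2 the log2 fold change was 0.26 (SE 0.07, edgeR adjusted p = 0.0375), under the fold threshold.

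Cxcl16, a transmembrane chemokine and scavenger receptor whose receptor is Cxcr6, measured 2.52, 2.13 and 2.56 FPKM in C3H, 1.79, 1.51 and 1.75 in Pde6b rd1, 2.84, 3.03 and 2.83 in Prph rd2, and 4.83, 5.55 and 5.46 in Pde6b rd10. No 2 groups overlapped. In Pde6b rd10 it rose by a log2 fold change of 1.08 (SE 0.10, edgeR adjusted p = 1.27e-08). In Pde6b rd1 the log2 fold change was -0.57 (SE 0.13, edgeR adjusted p = 0.000706), short of the fold threshold. It passed the threshold without Pde6b rd1 sample 1 (-0.61), without Pde6b rd1 sample 3 (-0.60) and without C3H sample 2 (-0.66). In Prph rd2 it was 0.24 (SE 0.11, edgeR adjusted p = 0.189) and not called.

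Cxcl12, the ligand of Cxcr4 and of the scavenging receptor Ackr3, measured 1.87, 2.20 and 1.77 FPKM in C3H, 1.34, 0.933 and 1.35 in Pde6b rd1, 2.56, 2.69 and 2.44 in Prph rd2, and 4.01, 4.29 and 3.88 in Pde6b rd10. Again no 2 groups overlapped. It rose in Pde6b rd10 by a log2 fold change of 1.00 (SE 0.08, edgeR adjusted p = 1.07e-09) and fell in Pde6b rd1 by 0.75 (SE 0.11, edgeR adjusted p = 7.76e-06). In Prph rd2 the log2 fold change of 0.36 (SE 0.09, edgeR adjusted p = 0.0193) was under the fold threshold.

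Of the 3 chemokine genes tested in Pde6b rd1, 2 were thus called lower, Cx3cl1 and Cxcl12, while 6.03% of 18310 genes tested were called lower. In all 3 each Pde6b rd1 sample lay below each C3H sample, as in 25.5% of genes. In Prph rd2, 0 of 3 were called, against 4.57% of 18581 genes. At an unadjusted p under 0.05 without the fold threshold all 3 passed in Prph rd2, with p of 0.0417 for Cxcl16, 0.0031 for Cx3cl1 and 0.00112 for Cxcl12, and limma and DESeq2 called none at the same 2 thresholds. Each Prph rd2 sample lay above each C3H sample for Cxcl16 and Cxcl12, as in 14.8% of genes. These 3 comparisons share the C3H samples. Against the single C3H sample of the same day, with no test, the mean FPKM ratios of Cx3cl1, Cxcl16 and Cxcl12 were 0.662, 0.669 and 0.648 in Pde6b rd1 at day 13, 1.66, 2.47 and 1.84 in Pde6b rd10 at day 23, and 1.11, 1.13 and 1.45 in Prph rd2 at day 29.

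**Figure D3:**
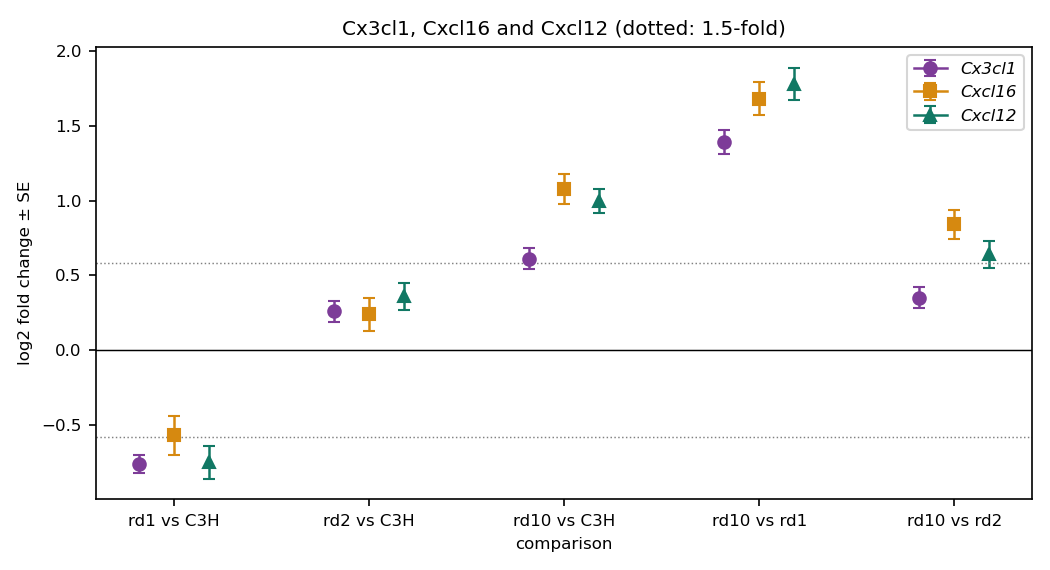
Log2 fold change (vertical axis, with its SE) of Cx3cl1, Cxcl16 and Cxcl12 in the 3 comparisons with C3H and the 2 between models (horizontal axis). All 3 genes lie below 0 in Pde6b rd1, between 0 and the 1.5-fold line in Prph rd2 and above that line in Pde6b rd10; only Cx3cl1 stays under it for Pde6b rd10 against Prph rd2.

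The models were also compared directly, by contrasts in a fit of all 12 samples. Pde6b rd10 and Pde6b rd1 carry mutations of the same gene but differ in day, strain and Xist counts. Set against Pde6b rd1, Pde6b rd10 had higher levels of all 9 tested chemokine genes by these thresholds, as for 17.6% of 19616 genes. As against C3H, the genes scarce elsewhere passed the filter only through Pde6b rd10, so that this count and the one against Prph rd2 describe the genes without supporting a difference from that share. Each Pde6b rd10 sample lay above each Pde6b rd1 sample in all 9, as in 33.1% of genes. The log2 fold changes were 1.39 (SE 0.08) for Cx3cl1, 1.68 (SE 0.11) for Cxcl16 and 1.78 (SE 0.11) for Cxcl12. The pooled ratios were 260 (95% counting interval 71.6 to 2150) for Ccl2, 48.2 (16.2 to 236) for Ccl12 and 495 (88.5 to 19600) for Cxcl10. Against Prph rd2, 8 of 9 tested were called higher in Pde6b rd10, where 13.5% of genes were, and the samples did not overlap for any of the 9, as in 25.6% of genes. The exception was Cx3cl1, with a log2 fold change of 0.35 (SE 0.07, edgeR adjusted p = 0.000569). Cxcl16 differed by 0.84 (SE 0.10) and Cxcl12 by 0.64 (SE 0.09).

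Per gene length, the order of the 10 levels also differed between groups. In C3H, Cx3cl1 stood first with 16.0 ± 1.52 FPKM (SD, n = 3), followed by Cxcl16 with 2.40 ± 0.233 and Cxcl12 with 1.95 ± 0.227, which overlapped with each other, and all others were at 0.24 or less. Pde6b rd1 and Prph rd2 had these genes in the same order at the top, without overlap between neighbours. In Pde6b rd10 the order was Cx3cl1 (25.4 ± 2.07), Ccl2, Cxcl16 (5.28 ± 0.395), Ccl12 (4.46 ± 0.823), Cxcl12 (4.06 ± 0.206), Cxcl10 (3.63 ± 0.372), Ccl7 (2.69 ± 0.642), Ccl3, Ccl4 and Ccl5. Of neighbours in this order, Cxcl16 overlapped with Ccl12, Ccl12 with Cxcl12, Cxcl12 with Cxcl10, Ccl3 with Ccl4 and Ccl4 with Ccl5, and the others did not overlap. Cx3cl1 made up 77.1% of the summed mean FPKM of the 10 genes in C3H, 75.8% in Pde6b rd1, 77.6% in Prph rd2 and 45.7% in Pde6b rd10. The sums were 20.8, 13.1, 25.4 and 55.6 FPKM. The median log2 pooled fold change of the 10 genes in Pde6b rd10, with 3 of them at their lower bound, was 3.95, and the median log2 fold change of all genes tested was 0.

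Several receptors of these ligands were also called higher in Pde6b rd10. Of 22 receptor genes with values, 11 were tested. Of these, 6 were called higher (among them Ccr1, Ccr2, Ccrl2, Ackr3 and Cx3cr1), 2 lower (Cxcr4 and Ackr2) and 3 neither. Among all genes tested 15.9% were called higher and 8.08% lower, 23.9% in either direction. However, Ccr1, Ccr2 and Ccrl2 passed the low-count filter only through Pde6b rd10, so this count is no support. Ccr2, the receptor of Ccl2, Ccl7 and Ccl12 that inflammatory monocytes carry, had 169, 103 and 140 counts in Pde6b rd10 and 0, 0 and 1 in C3H. The pooled ratio was 398 (95% counting interval 71.1 to 15800) and the edgeR adjusted p was 4.93e-13. In Pde6b rd1 no Ccr2 read was counted, and in Prph rd2 0, 1 and 1. Ccr1 had 69, 49 and 50 counts in Pde6b rd10 and 1, 0 and 4 in C3H, a pooled ratio of 32.5 (95% counting interval 13.7 to 101). The atypical receptor gene Ccrl2 had 24, 28 and 38 counts in Pde6b rd10 against 7, 7 and 4 in C3H, and its log2 fold change was 2.26 (SE 0.37).

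Cx3cr1, the receptor of Cx3cl1, measured 12.6, 12.8 and 11.6 normalized CPM in C3H, 12.3, 13.2 and 14.5 in Pde6b rd1, 8.69, 9.65 and 9.40 in Prph rd2, and 32.4, 32.2 and 30.5 in Pde6b rd10. It rose in Pde6b rd10 by a log2 fold change of 1.36 (SE 0.07, edgeR adjusted p = 2.2e-12), while in Prph rd2 every sample lay below C3H without passing the fold threshold (-0.42, SE 0.09, edgeR adjusted p = 0.0126). In Pde6b rd1 it was 0.13 (SE 0.09, edgeR adjusted p = 0.244).

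Of the 2 receptors of Cxcl12, one fell and the other rose in Pde6b rd10. Cxcr4 measured 8.13, 8.67 and 7.78 normalized CPM in C3H, 10.2, 11.9 and 12.1 in Pde6b rd1, 4.24, 4.95 and 3.93 in Prph rd2, and 4.19, 3.78 and 4.07 in Pde6b rd10. It fell by 1.03 on the log2 scale in Pde6b rd10 (SE 0.12, edgeR adjusted p = 3.97e-07) and by 0.91 in Prph rd2 (SE 0.13, edgeR adjusted p = 0.000286), and the difference between these models did not pass the test (-0.12, SE 0.13, edgeR adjusted p = 0.49). In Pde6b rd1 every sample lay above C3H, at a log2 fold change of 0.49 (SE 0.10, edgeR adjusted p = 0.000334) under the fold threshold. Ackr3, which removes Cxcl12 from the extracellular space, rose in Pde6b rd10 by 0.74 (SE 0.17, edgeR adjusted p = 0.00104). Ackr2, a scavenger of inflammatory CC chemokines, had 13, 19 and 11 counts in Pde6b rd10 and 51, 49 and 65 in C3H, and fell by 1.98 on the log2 scale (SE 0.28, edgeR adjusted p = 4.92e-06). In Pde6b rd1 edgeR called 0 of 8 tested receptors, against 15% of all genes in either direction, and DESeq2 and limma called 0 too. At an unadjusted p under 0.05 alone 2 passed, Cxcr4 (higher) and Ackr3 (lower). In Prph rd2, of 10 tested, Ccrl2 was higher (1.13, SE 0.41, edgeR adjusted p = 0.102) and Cxcr4 lower.

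**Figure D4:**
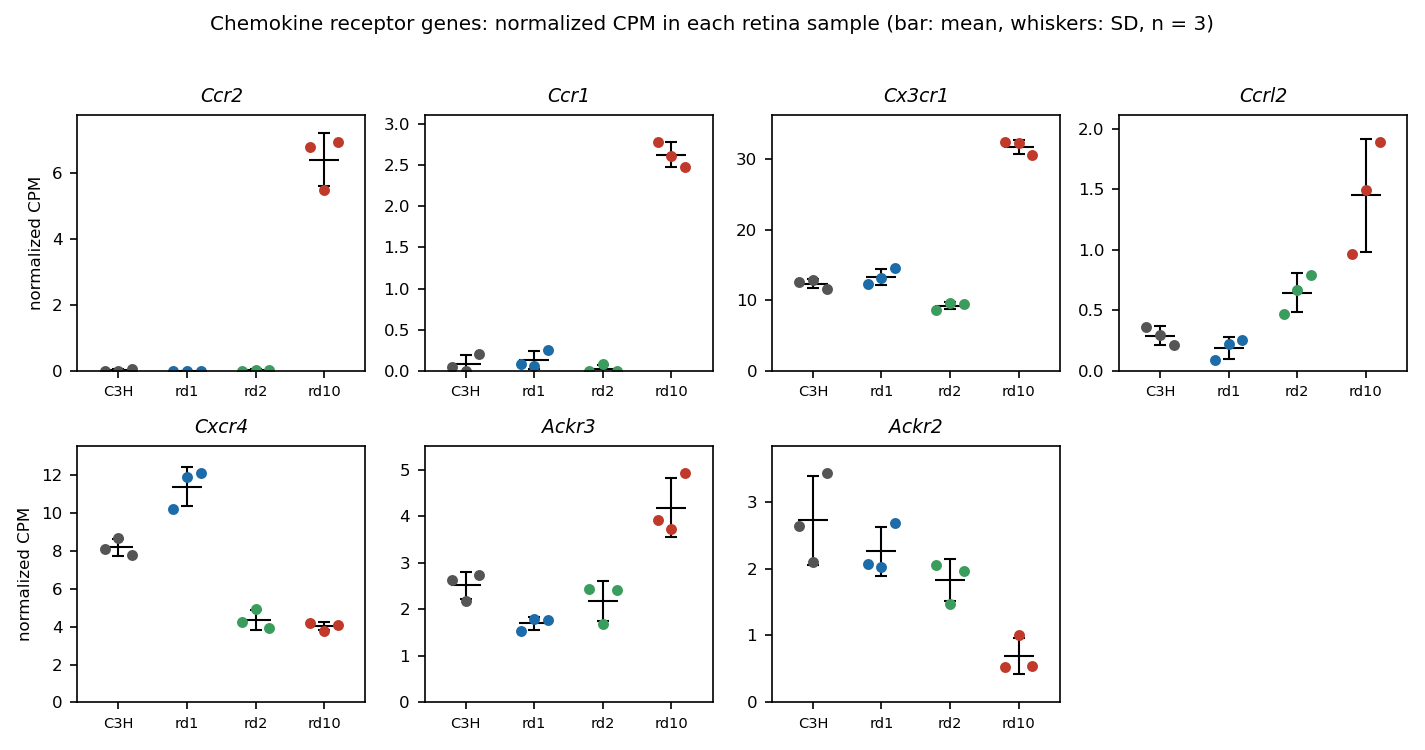
Normalized CPM of 7 chemokine receptor genes (vertical axes, each from 0) in the 4 groups (horizontal axes), with the samples as points, the mean as a bar and the SD as whiskers (n = 3). Ccr2 and Ccr1 lie near 0 outside Pde6b rd10 (rd10), Cxcr4 is lower in rd10 and Prph rd2 (rd2) than in C3H, and Ackr2 is lowest in rd10.

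Of the 3 genes for enzymes that cleave these chemokines, the sheddases Adam10 and Adam17 were not called in any comparison with C3H. At an unadjusted edgeR p under 0.05 alone, both were higher in Pde6b rd1, with log2 fold changes of 0.16 (SE 0.04) and 0.12 (SE 0.06). In Pde6b rd10, 2 of the 3 genes passed in this way, 1 higher and 1 lower, and in Prph rd2 0. Dpp4, a peptidase that truncates Cxcl12, Cxcl10 and several CC ligands, fell by 0.72 in Pde6b rd1 (SE 0.26, edgeR adjusted p = 0.0271) and was not called in the other 2 models. Over all genes tested 6.03% were called lower in Pde6b rd1.

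Further chemokine ligands were higher in Pde6b rd10. Of 26 further ligand genes with values, 8 were tested, and edgeR called 6 higher and 0 lower, while at an unadjusted p under 0.05 alone 1 was lower, Cxcl14. Over all genes 15.9% were called higher, but Cxcl1, Ccl28, Ccl11, Ccl6 and Cxcl13 passed the low-count filter only through Pde6b rd10. This count is therefore no support, and the values of these genes are a description. Cxcl1, a neutrophil attractant, had 36, 28 and 39 counts against 1, 0 and 0 in C3H, a pooled ratio of 99.6 (95% counting interval 17.5 to 3970). Ccl28, an epithelial chemokine, had 53, 44 and 38 against 1, 2 and 1, a ratio of 32.6 (12.5 to 122). Ccl11, the eosinophil attractant eotaxin, had 13, 11 and 16 against 0, 1 and 0, a ratio of 38.7 (6.56 to 1570). Ccl6 and Ccl9, ligands of Ccr1, rose by log2 fold changes of 3.64 (SE 0.30) and 1.45 (SE 0.17). Cxcl13, the B cell attractant, rose by 1.09 (SE 0.36, edgeR adjusted p = 0.016). Of the well-expressed ligands, Ccl25 (0.00, SE 0.07) and Cxcl14 (-0.26, SE 0.06) were not called. In Pde6b rd1, of 3 tested, Ccl9 fell by 1.07 (SE 0.27, edgeR adjusted p = 0.00219). In Prph rd2, of 4 tested, Ccl9 had a log2 fold change of -0.62 (SE 0.26, edgeR adjusted p = 0.164) and was called lower at the unadjusted threshold.

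Both runs of CC genes on chromosome 11 held further chemokine genes. Within 500000 bases of Ccl2, Ccl7 and Ccl12 there were 6 listed chemokine genes, of which Ccl2, Ccl7, Ccl11 and Ccl12 were tested and called higher. These passed the filter only through Pde6b rd10, and Ccl1 and Ccl8 were not tested, so the count is a description. Of the 9 other genes 4 were tested and edgeR called 0, with 1 at an unadjusted p under 0.05 alone. Around Ccl5, Ccl3 and Ccl4, the 4 chemokine genes tested of 5 were called higher (Ccl3, Ccl5, Ccl6 and Ccl9), with the same limit for those scarce in C3H. Of the 33 other genes 17 were tested, of which 4 were higher (Slfn1, Slfn2, Slfn4 and Wfdc17) and 2 lower, beside 15.9% higher and 8.08% lower over all genes. At an unadjusted p under 0.05 alone it was 10, of which 6 were lower.

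Markers of several cell types moved with these results, and fewer cells of a type cannot be told apart from less RNA per cell in whole retina. The summed FPKM of 9 microglial markers was 109 to 120 in Pde6b rd10, 40.6 to 41.4 in C3H, 39.1 to 40.4 in Pde6b rd1 and 37.6 to 40.0 in Prph rd2. In Pde6b rd10, 8 of the 9 were called higher, beside 15.9% of all genes tested, with log2 fold changes of 1.54 for Csf1r and 3.50 for Ptprc. Among them, Aif1 passed the low-count filter only through Pde6b rd10. The homeostatic marker P2ry12 stood at -0.36, lower at an unadjusted edgeR p under 0.05 but under the fold threshold. The sum of 7 monocyte and perivascular macrophage markers was 9.87 to 10.7 in Pde6b rd10 and 5.0 to 5.41 in C3H, with 5 of 6 tested called higher, among them Mrc1 (4.56) and F13a1 (3.24). Chil3 and Plac8 were at 0 in C3H and Pde6b rd1. Over all genes tested 15.9% were called higher in Pde6b rd10. Plac8, Mrc1, Cd163 and Ly6c2 passed the low-count filter only through Pde6b rd10, so the count of 5 of 6 is no support. Ly6c2 was called at a log2 fold change of 0.79 (SE 0.38) with an edgeR adjusted p of 0.0834. The sum of 4 neutrophil markers was 1.08 to 1.46 in Pde6b rd10 and 0 to 0.133 in C3H, with Elane at 0 in both and none tested. For 6 T cell markers it was 0.924 to 1.2 against 0.336 to 0.361, with Cd8a called higher and Cd3e and Cd3g at 0 in C3H. For 4 B cell markers it was 0.422 to 0.589 against 0.0246 to 0.272. Cd8a too passed the low-count filter only through Pde6b rd10, so its call is no support. The part of these cell types in the chemokine values was not tested.

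In Pde6b rd1, where Cx3cl1 and Cxcl12 were lower, the summed FPKM of 5 rod markers was 2110 to 2150 against 4430 to 4570 in C3H. That of 5 Mueller glia markers was 346 to 354 against 708 to 722, of 4 pericyte markers 30.8 to 32.8 against 44.1 to 46.7, of 4 endothelial markers 25.6 to 27.1 against 30.4 to 32.0, and of 4 pigment epithelium markers 10.3 to 11.9 against 17.8 to 20.4. The sum of the 7 monocyte and perivascular macrophage markers was 2.19 to 2.5 against 5.0 to 5.41, with Lyve1 called lower. In Pde6b rd10 the rod sum was 3910 to 4110, the Mueller glia sum 639 to 667, the pericyte sum 44.6 to 48.0, the endothelial sum 25.5 to 29.8 and the pigment epithelium sum 19.3 to 20.1. Of the 5 Mueller glia markers there, the reactive marker Gfap was called higher (3.19) and Slc1a3 lower (-0.76). Glul (-0.35), Rlbp1 (-0.38) and Aqp4 (0.28) were under the fold threshold, though all 5 markers passed an unadjusted edgeR p under 0.05 alone. In Prph rd2 the rod sum was 2850 to 3090 and the Mueller glia sum 772 to 808, and the monocyte and perivascular macrophage sum was 6.59 to 7.0. Their part in the values of Cx3cl1, Cxcl16 and Cxcl12 was not tested either.

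As a description of the shape of each gene's values, the 2 most similar genes by Pearson's r of log2(FPKM + 1) over the 12 samples were searched among 19616 genes. The 12 points fall into 4 groups, so these values mostly describe the group means. Ccl2 was closest to Gm14216 and Cxcl10 (both 0.999), and Ccl7 to Il1b (0.999), the gene of the cytokine interleukin-1 beta, and 9330175E14Rik (0.998). Cxcl10 was closest to Gm14216 (1.0) and B230220B15Rik (0.999). Ccl5 was closest to Gm5345 (0.997) and Acod1 (0.996), Ccl3 to Rasal3 (0.991) and Gm45356 (0.987), and Ccl12 to Soat1 (0.993) and Kcnk6 (0.992). The 3 constitutive genes had other neighbours. Cx3cl1 was closest to Arhgef17 (0.994) and Oplah (0.991), Cxcl16 to Mrap2 (0.99) and Sh2d5 (0.989), and Cxcl12 to Sec14l5 and Stk32a (both 0.989). No circRNA came from any of the 10 genes, among 12510 listed circRNAs covered by 9819 to 25009 junction reads per sample.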

How the data were processed

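Reads per gene (counts) were deposited unnormalized. The authors removed adapter, poly-N and low-quality reads, aligned the rest to GRCm38 and counted with HTSeq v0.11.2. They computed FPKM from these counts by gene length and reads counted, and for circRNAs deposited junction counts (TopHat2 v2.1.1) and TPM. How reads shared by related genes were counted, and the strand setting, are not given in the sources used here.

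Each model was compared with C3H (6 samples), and the models with each other by contrasts over 12 samples, in R 4.3.3 with edgeR 4.0.16 (TMM, filterByExpr, quasi-likelihood test). Genes were called at 1.5-fold or more with the p before adjustment below 0.05, as in the study's methods. Adjusted p-values are Benjamini-Hochberg over all genes tested. Of a group with low counts, counts normalized by TMM were pooled: a group at 0 was set to 3 counts (a lower bound), and otherwise the ratio has an exact conditional binomial 95% interval. P-values measure the spread between samples, which may be technical. Of 32867 genes 32852 matched GENCODE vM21. Tested on simulated data, the steps found 98 to 100% of the 2-fold and 100% of the 4-fold changes in each comparison. Only genes well above the detection floor were changed there, with the same spread assumed for all genes. This recovery does not cover scarce genes such as Ccl3, Ccl4 and Ccl5.

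The chemokine genes and all lists were chosen with earlier results of these data known. Named were the 10 genes, ligands, receptors and processing genes called in a comparison with a mean of 10 counts in a group (at most 8 per list and comparison, by p), and the 2 most similar genes; genes named beyond this were chosen after their values were seen. Ccl19, Ccl26, Cxcr1 and Ly6g had no row, and values of some listed genes are not reported here. Tried besides were DESeq2 1.42.0, limma 3.58.1 after log2(FPKM + 1), the RLE size factors, no filter, the adjusted p, 12 samples in 1 fit, a replicate block and samples left out, and, chosen after seeing the data, the C3H sample of the same day. Other tables used Python 3.11.15, pandas 2.3.3 and scipy 1.17.1.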

Additional observations from a re-analysis of the deposited data

Results flagged for a closer look

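For Cx3cl1, Cxcl16 and Cxcl12 the difference from C3H was not the same in the models, by a direct test of one model against another. Ccl2, Ccl3, Ccl5, Ccl7, Ccl12 and Cxcl10 passed the low-count filter only through Pde6b rd10. They could hardly have been tested without a difference, so their values below are a description. In Pde6b rd10 against Pde6b rd1, the pooled ratios were 260 for Ccl2, 13.5 for Ccl3, 48.2 for Ccl12 and 495 for Cxcl10, and the lower bounds were 12.6 for Ccl5 and 42.2 for Ccl7. The log2 fold changes were 1.68 for Cxcl16, 1.39 for Cx3cl1 and 1.78 for Cxcl12. In Pde6b rd10 against Prph rd2, the pooled ratios were 307 for Ccl2, 63.6 for Ccl3, 22.3 for Ccl5, 74.8 for Ccl7, 42.7 for Ccl12 and 585 for Cxcl10. The log2 fold changes were 0.84 for Cxcl16, 0.64 for Cxcl12 and 0.35 for Cx3cl1, the last of which passed the test without passing the 1.5-fold threshold. In each of these the 3 Pde6b rd10 samples lay above the 3 samples of the other model. Day differs between these groups, as does strain for Pde6b rd1 by the methods of the study, and these cannot be told apart from the mutation. Xist counts differ between the models too, so sex composition may differ, and its part was not tested. For Prph rd2 the sources disagree on the strain.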

How the results depend on the processing

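The direction of each tested gene of the 10 was kept in every alternative that gave a value. Calls that moved were those of Cx3cl1 in Pde6b rd10 and of Cxcl16 in Pde6b rd1, given above, and, under limma on log2(FPKM + 1), those of Cxcl12 in Pde6b rd1 (-0.42) and against Prph rd2 (0.51). Cxcl16 in Pde6b rd1 was also called with all 12 samples in 1 fit (-0.60) and against the C3H sample of the same day (-0.65). With samples left out in turn, 2 to 3 of the 10 genes were called in Pde6b rd1, 8 to 9 in Pde6b rd10 and 0 in Prph rd2, 9 against Pde6b rd1 and 8 against Prph rd2. Against the C3H sample of the same day, 3, 10 and 0 were called in Pde6b rd1, Pde6b rd10 and Prph rd2, with the lone C3H sample assumed to vary like the model's samples.

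Counts of other genes depended on the low-count filter and the tool. In Pde6b rd1, called ligands (1) numbered 2 without the filter, 0 under limma, 2 with 12 samples in 1 fit and 0 against the same-day C3H sample, called receptors (0) numbered 1 without the filter (Cxcr6) and 0 to 1 with samples left out (Cxcr6 without Pde6b rd1 sample 3 or C3H sample 1, Ackr3 without C3H sample 2), called members (2) 1 under limma, and all called genes (2749) 1097 under limma. In Pde6b rd10, called ligands (6) and receptors (8) both numbered 13 without the filter, receptors 5 under limma, and all genes (4479) 2035 under limma. In Prph rd2, all called genes (850) numbered 1300 without the filter, 166 under limma, 384 by the adjusted p and between 745 and 1435 with samples left out, the last without Prph rd2 sample 2. Called ligands there (1) numbered 2 without the filter, 0 under limma, DESeq2, the adjusted p and the same-day C3H sample, and 0 to 1 with samples left out (0 without Prph rd2 sample 2 or 3 or C3H sample 2 or 3), and called receptors (2) numbered 1 under limma, DESeq2 and the adjusted p, each time Cxcr4, and 2 to 3 with samples left out. Ccrl2 was not called without Prph rd2 sample 3 or C3H sample 3. Against Pde6b rd1, called ligands (7) numbered 14 and receptors (8) 13 without the filter, both 4 under limma, and all genes (5644) 2929. Against Prph rd2, called ligands (7) numbered 14 and receptors (7) 13 without the filter, 4 and 3 under limma, and all genes (3862) 1791. The causes of these shifts were not tested, beyond that limma on log2(FPKM + 1) understates the change of low genes and that dropping the filter adds genes.

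Replicate numbers are shared by the groups. The correlation of the deviations of same-numbered samples was between 0.0609 and 0.153 for Pde6b rd1 and C3H. For Pde6b rd10 and C3H it was between -0.0631 and -0.0135, and for Prph rd2 and C3H between -0.0911 and 0.0622. Between models it ran from -0.0362 to 0.136 for Pde6b rd10 and Pde6b rd1, and from 0.023 to 0.225 for Pde6b rd10 and Prph rd2. No comparison had every pair above 0.1. For Pde6b rd1 and C3H every sample correlated best with its own number, as did every Prph rd2 sample against Pde6b rd10, so some pairing by number is possible. With the replicate block 2, 9 and 0 of the 10 genes were called in Pde6b rd1, Pde6b rd10 and Prph rd2, and 9 and 8 against Pde6b rd1 and Prph rd2, as without it, and the first 3 comparisons had 2774, 4434 and 855 calls over all genes. For 6 of the genes no difference of Pde6b rd1 or Prph rd2 from C3H was detectable at this depth.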
